A study of Mus musculus with 52 samples.

Results

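Monocytes leave the blood for tumors and inflamed tissue along chemokine gradients, and 9 genes of this traffic were followed across a study of CD40 agonists in tumor-bearing mice. They were taken by gene symbol: the receptors Cx3cr1 and Ccr2, the chemokines Cx3cl1, Ccl2, Ccl7, Ccl8 and Ccl12, and Ly6c2 and Nr4a1, which mark or shape the main kinds of mouse monocyte. They are 9 of the 57010 genes of the deposited table, and each symbol matched a single identifier. The rule uses no measured value, but the genes were chosen with earlier results of these data known. RNA sequencing of polyadenylated RNA was read in 50 of the 52 libraries. All mice, the vehicle group included, were of the hCD40tg strain, which by its name carries a human CD40 transgene, and all bore MC38-CEACAM5 tumors, grown from the mouse colon carcinoma line MC38 carrying the tumor antigen CEACAM5. Mice received vehicle, CD40 mAb, an antibody to CD40, or ATOR-4066, a bispecific antibody that binds CD40 and CEACAM5. The sources used here give neither the promoter of the transgene nor the age and sex of the mice, the doses or the time of sampling.

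Blood, lymph node and whole tumor came from the animals numbered 1 to 5 of each treatment, and CD45+Ly6G- cells, leukocytes sorted from tumors without neutrophils, came from animals numbered 6 to 10. There were 4 vehicle, 5 CD40 mAb and 4 ATOR-4066 libraries of whole tumor. In the same order of treatments, 4, 3 and 3 libraries came from sorted cells, 4, 4 and 5 from lymph nodes, and 5, 5 and 4 from blood. The labels number the animals, so p-values measure the spread between animals of this experiment. The drug comparisons of a material share libraries, the vehicle ones above all, and are not independent of each other.

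CCR2 lets Ly6C-high, or classical, monocytes leave the bone marrow and enter sites that make CCL2, CCL7 or, in the mouse, CCL12, where they become macrophages or dendritic cells. CX3CR1 binds CX3CL1, a chemokine held on the surface of endothelial and epithelial cells, and is highest on Ly6C-low monocytes, which patrol vessel walls, and on many tissue macrophages. The nuclear receptor NR4A1 is needed for the Ly6C-low monocytes and is also an early response gene of activated lymphocytes and macrophages.

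Library totals ran from 33541462 to 44080203 counts in blood, 46326931 to 138479656 in lymph node, 47443744 to 64194409 in tumor and 30239560 to 47447640 in sorted cells. Values below are CPM, counts scaled to a library of 1000000 counts, with library sizes corrected by the trimmed mean of M values (TMM) within a material, unless another scale is named. Haemoglobin genes took 69.8% to 88.2% of the counts in blood and at most 0.602% elsewhere. The vehicle lymph node of animal 3 and the ATOR-4066 tumor of animal 3 were left out, since both go against their labels: the 6 B cell markers summed to 4.04 CPM in that lymph node, against 2115 to 3400 in the other vehicle lymph nodes, and to 2448.5 CPM in that tumor, where the other tumors of its group held 6.91 to 33.2. In whole tumor, CD40 mAb animal 5 also stood apart, with 16395 CPM summed over 10 macrophage markers and 840.2 CPM over 6 T cell markers, against at most 6180.5 and 94.5 in the other 4 tumors of its group. The sorted cells held little stromal RNA: 5 fibroblast markers summed to 4.83 to 140.8 CPM in vehicle, against 4676 to 7059 CPM in vehicle tumors. In bulk libraries, fewer cells of a type and less RNA per cell cannot be told apart.

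Across the vehicle libraries Cx3cr1, Ccr2 and Ly6c2 were highest in the sorted cells, and the chemokines of the CCR2 axis were highest in whole tumor or in sorted cells (plot of vehicle libraries by material). Nr4a1 averaged 102 CPM in blood and 92.2 CPM in sorted cells with TMM over all libraries, an order that flipped on library totals (32.5 and 177 CPM). Of the 9 genes, 5 differed between sorted cells and tumor by voom and limma with the animal as a random block, where 57.8% of the 21410 genes tested did. Ccr2 was 3.20 ± 0.352 (SE) log2 units higher in sorted cells (adjusted p = 5.54e-10), Ly6c2 4.08 ± 0.626 higher (adjusted p = 5.32e-07) and Nr4a1 3.76 ± 0.381 higher (adjusted p = 8.58e-11), against a median of -0.26 over all genes. Ccl8 was the exception among the called genes, 3.29 ± 0.630 log2 units lower in sorted cells (adjusted p = 3.63e-05). Cx3cr1 was 1.41 ± 0.566 higher in sorted cells (adjusted p = 0.0311), a call that ended in 5 of the 50 fits without a library (adjusted p = 0.0520 to 0.0662).

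**Figure D1:**
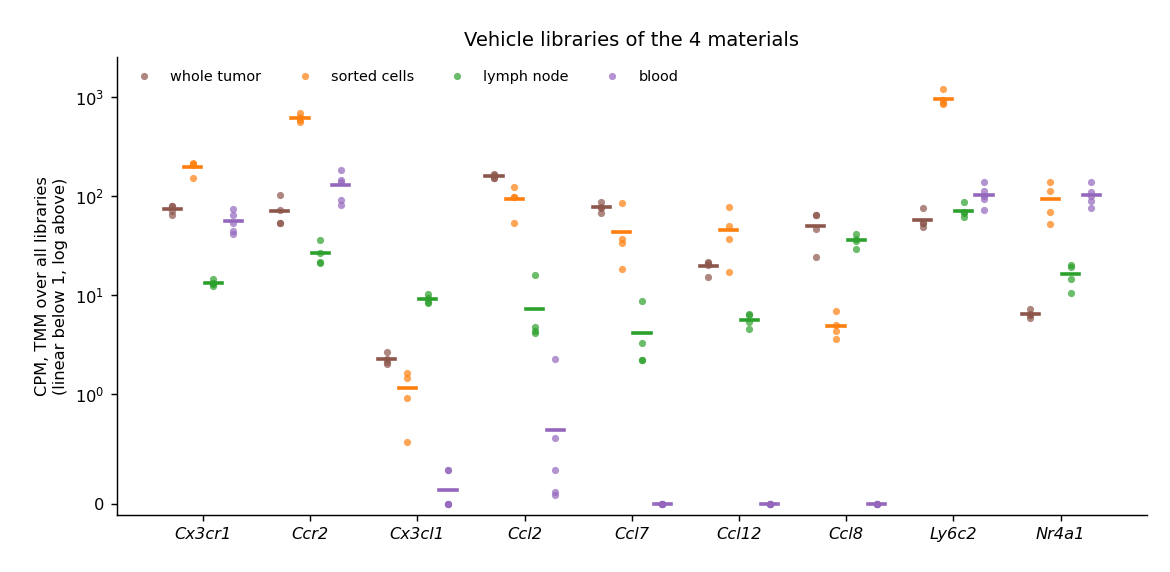
Level of the 9 genes in the vehicle libraries of the 4 materials, in CPM with TMM over all 50 libraries (vertical axis, linear below 1 and logarithmic above); points are libraries and bars are means. Ly6c2 and Ccr2 were highest in CD45+Ly6G- cells, Ccl2 and Ccl7 in whole tumor, and in blood the chemokine genes lay at or near 0.

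Tumor and lymph node vehicle libraries differed in 7 of the 9 genes, where 61.6% of all genes did. The tumor had more Ccl2, by 4.81 ± 0.474 log2 units (adjusted p = 2.07e-11), Ccl7, by 4.58 ± 0.521, Cx3cr1, by 2.53 ± 0.470, Ccl12, by 1.87 ± 0.486, and Ccr2, by 1.45 ± 0.284. It had less Cx3cl1 (-1.96 ± 0.439, adjusted p = 0.000203) and less Nr4a1 (-1.21 ± 0.328, adjusted p = 0.00149). Ccl8 and Ly6c2 did not pass the test. With the 2 left-out libraries in the fit the Ccl12 difference was 1.29 (adjusted p = 0.0669). Ccl8 and Cx3cl1 thus stood apart from the other chemokines: Ccl8 ranged from 59.0 to 83.1 CPM in the vehicle lymph nodes and from 51.5 to 140.7 CPM in the vehicle tumors, and Cx3cl1 from 16.8 to 20.5 CPM and from 4.16 to 5.51 CPM.

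Blood and lymph node vehicle libraries differed in 8 of the 9 genes, where 63.1% of all genes did. The chemokine genes were nearly silent in blood. Of the 14 blood libraries, 13 had no Ccl7 count, 12 no Ccl8, 12 no Ccl12 and 11 no Cx3cl1. Ccl2 was at 0 in 2, and its highest count was 33. With a floor of 3 counts per library, which covers counting error only, the vehicle blood was at least 134-fold lower than the vehicle lymph node for Ccl8, at least 21.1-fold lower for Ccl12 and at least 15.5-fold lower for Ccl7. Cx3cr1, Ccr2 and Nr4a1 went the other way on the TMM scale: Cx3cr1 was 55.0 ± 13.5 CPM (SD, n = 5) in blood and 13.2 ± 0.855 (n = 4) in lymph node, Ccr2 127 ± 40.7 and 26.3 ± 6.93, and Nr4a1 102 ± 24.2 and 16.0 ± 4.41, but on library totals, haemoglobin included, the 3 flipped, with means of 17.3 and 27.2, 40.5 and 54.0, and 32.5 and 33.0 CPM. Ly6c2 did not pass the test (adjusted p = 0.173).

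Per kilobase of exon, the vehicle tumors held most Ccl2 (mean 294 CPM per kb), then Ccl8 (206.5) and Ccl7 (202), and far less Cx3cr1 (34.6), Ccr2 (21.7), Nr4a1 (3.90) and Cx3cl1 (1.21). The sorted cells held most Ly6c2 (659 CPM per kb), then Ccr2 (171), Ccl12 (158), Ccl2 (155), Ccl7 (102) and Cx3cr1 (81.6), with Nr4a1 at 49.9, Ccl8 at 18.1 and Cx3cl1 at 0.554. Ly6c2 and Ccr2 have similar neighbours in their families, and their estimated counts were not whole in 52 and in 50 of the 52 libraries, against at most 15 for any other member. Their levels are given as uncertain, and the part of the neighbours in this was not tested.

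Of the 9 calls made in the drug comparisons, 6 were of Cx3cr1 or Ccr2 (plot of log2 changes by material). By edgeR's quasi-likelihood test with Benjamini-Hochberg adjustment over all genes, ATOR-4066 against vehicle called 1 of the 9 genes in tumor, where 1.32% of 18454 genes were called, and 3 of 9 in sorted cells, where 11.9% of 16667 were. It called none in lymph node, where 0% of 18671 genes were called, and none of the 4 tested in blood, where 0.435% of 12184 were and the 5 chemokine genes were too low to test. CD40 mAb against vehicle called none in tumor (0% of all genes), in sorted cells (1.09%) or in lymph node (0.0643%), and 3 of 4 in blood, where 34.6% of all genes were called. ATOR-4066 against CD40 mAb called 2 of 9 in sorted cells (8.23% of all genes) and none in tumor (0.0325%), lymph node (0.0161%) or blood (13.1%).

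Where none was called, an unadjusted p under 0.05 was reached by 3 members for ATOR-4066 in lymph node and by 0 in blood. For CD40 mAb it was reached by 1 in tumor, 1 in sorted cells and 4 in lymph node. Between the drugs it was reached by 2 in tumor, 2 in lymph node and 2 in blood. Among all genes tested, the counts in this order were 2954 of 18671 and 1831 of 12184 for ATOR-4066. They were 2205 of 18454, 3163 of 16667 and 4409 of 18671 for CD40 mAb. Between the drugs they were 1879 of 18454, 1740 of 18671 and 3209 of 12184. Of the members, DESeq2 called in the same order 1 and 0 for ATOR-4066, 0, 0 and 3 for CD40 mAb, and 2, 1 and 1 between the drugs. Voom with sample weights called 0 and 0, then 0, 0 and 2, and then 2, 0 and 1. In the sorted cells, 48.9% of the 182 genes called for CD40 mAb were higher, and 36.7% of 215 when library totals were used without TMM factors.

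**Figure D2:**
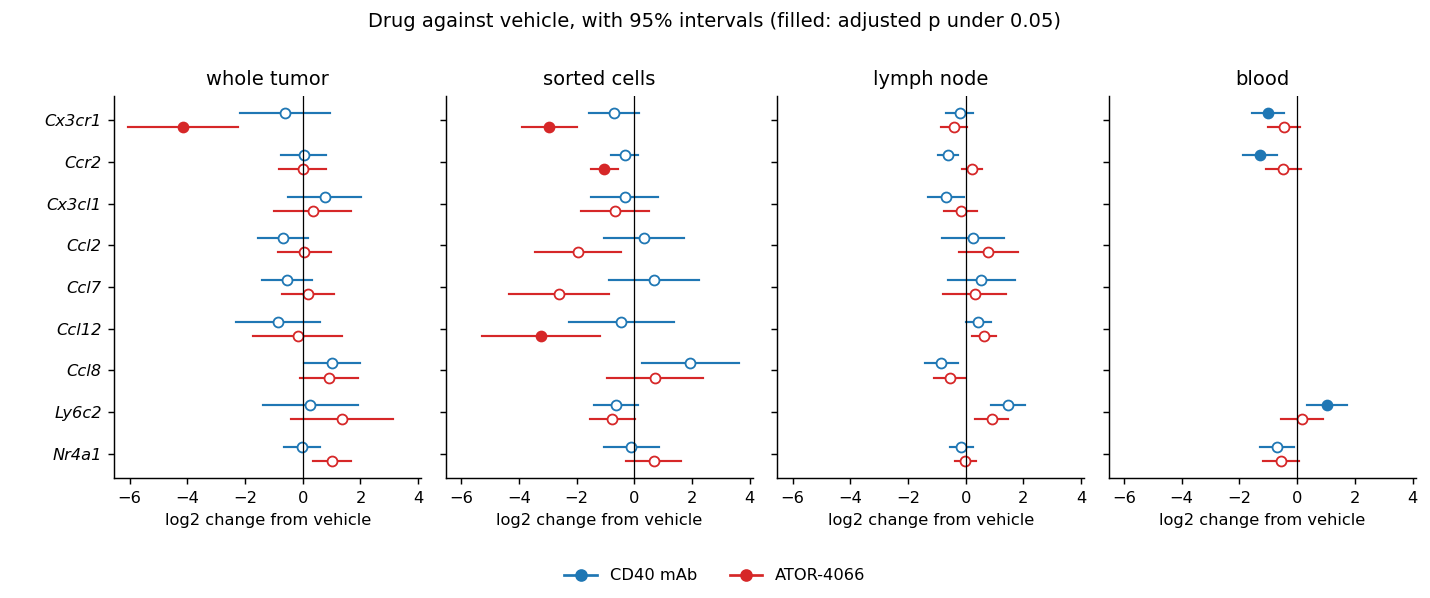
Log2 change from vehicle (horizontal axis) of the 9 genes in each material for CD40 mAb and ATOR-4066, with 95% confidence intervals from edgeR; filled points have an adjusted p under 0.05, and genes too low to test in blood have no point. The filled points are Cx3cr1 in tumor, Cx3cr1, Ccr2 and Ccl12 in CD45+Ly6G- cells, all for ATOR-4066, and Cx3cr1, Ccr2 and Ly6c2 in blood for CD40 mAb.

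Cx3cr1, the fractalkine receptor (ENSMUSG00000052336, GRCm38 chr9:119901616-120069879, minus strand), fell in tumors under ATOR-4066. It stood at 165.5, 135.0, 168.9 and 154.4 CPM in the vehicle tumors and at 3.92, 3.15, 11.1 and 16.5 CPM in the ATOR-4066 tumors. The 2 groups did not overlap, and the highest ATOR-4066 tumor lay far below the lowest vehicle tumor. The log2 change was -4.15 ± 0.875 (SE, 95% confidence interval -6.05 to -2.26, adjusted p = 0.0433), a 17.8-fold decrease. The call was lost with no filter on low counts (adjusted p = 0.0746), with the left-out libraries in the fit (-4.00, adjusted p = 0.0656) and in 10 of the 13 fits without a library, all but those without CD40 mAb animals 1, 2 or 5 (-4.66 to -3.84, adjusted p up to 0.164). The left-out ATOR-4066 tumor had 13.1 CPM.

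In CD40 mAb tumors Cx3cr1 stood at 6.51, 205.7, 150.8, 30.6 and 114.7 CPM. Animals 1, 4 and 5 were below every vehicle tumor and animal 2 was above them, and the log2 change was -0.61 ± 0.724 (adjusted p = 0.684). Between the drugs the difference was -3.54 ± 0.835, which did not pass edgeR's test (adjusted p = 0.188). DESeq2 (-3.53, adjusted p = 0.000217) and voom with sample weights (-4.31, adjusted p = 0.0271) called it. CD40 mAb animal 1 thus lay within the ATOR-4066 range while the other 4 did not.

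Cx3cr1 also fell in the sorted cells, which came from other animals. Cx3cr1 was 388.8, 292.2, 391.9 and 397.6 CPM in vehicle, 117.5, 325.4 and 239.1 CPM under CD40 mAb and 79.2, 29.8 and 33.5 CPM under ATOR-4066. ATOR-4066 lay below both other groups without overlap, by -2.94 ± 0.430 log2 units from vehicle (adjusted p = 0.00829) and by -2.24 ± 0.430 from CD40 mAb (adjusted p = 0.0200). The first call was kept in every alternative fit, with an adjusted p of at most 0.0336. The second was lost with no filter (0.0544), with only the 2 groups in the fit (0.102) and without CD40 mAb animal 7 (0.0585) or animal 10 (0.0818).

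**Figure D3:**
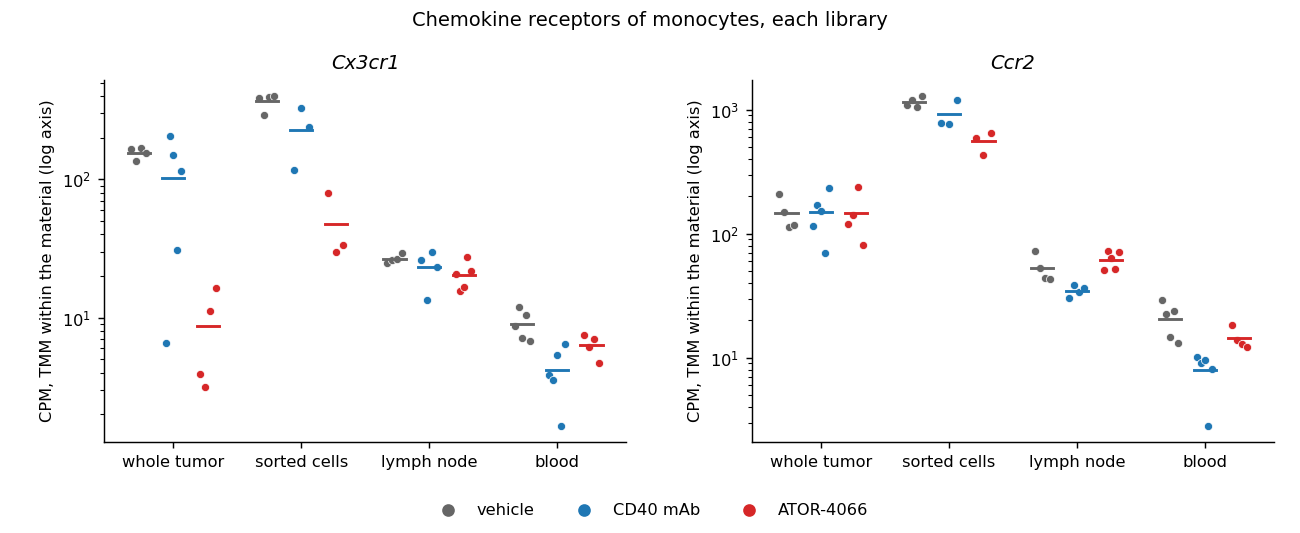
Cx3cr1 (left) and Ccr2 (right) in each library, in CPM with TMM within the material (logarithmic vertical axis), by material and treatment; points are libraries and bars are group means. Cx3cr1 in the ATOR-4066 tumors lies between 3.15 and 16.5 CPM against 135.0 to 168.9 CPM in vehicle, while the Ccr2 levels of the tumor groups overlap.

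Lymph node Cx3cr1 did not pass any drug test. It ranged from 24.7 to 29.4 CPM in vehicle, 13.5 to 29.8 under CD40 mAb and 15.5 to 27.2 under ATOR-4066. The difference of the ATOR-4066 effects, tumor minus lymph node, was -4.07 ± 0.809 log2 units (adjusted p = 0.00291), where 8.47% of 21410 genes differed. Cx3cr1 was the 1 called member of 9 there, and this call was lost when the left-out libraries entered the fit (-3.43, adjusted p = 0.0781). The effects in sorted cells and tumor were not called different (difference 1.43, adjusted p = 0.416).

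In blood, Cx3cr1 stood at 8.65, 11.9, 7.09, 10.5 and 6.80 CPM in vehicle and at 3.82, 3.52, 5.34, 1.64 and 6.39 CPM under CD40 mAb, without overlap. It fell by 1.01 ± 0.259 log2 units (adjusted p = 0.00759). Under ATOR-4066 it stood at 7.51, 6.11, 7.04 and 4.73 CPM, and 2 of the 4 libraries lay below all vehicle libraries (-0.45, adjusted p = 0.444).

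Ccr2, the receptor that carries classical monocytes out of the marrow (ENSMUSG00000049103, GRCm38 chr9:124101950-124113557, plus strand), fell in sorted cells under ATOR-4066 and in blood under CD40 mAb. Sorted cells held 1098, 1199, 1055 and 1280 CPM in vehicle, 778.0, 768.7 and 1204 CPM under CD40 mAb and 595.3, 428.0 and 651.9 CPM under ATOR-4066. The ATOR-4066 libraries lay below all others, and the change from vehicle was -1.04 ± 0.214 log2 units (adjusted p = 0.0163), kept in every alternative fit with an adjusted p of at most 0.0499. Against CD40 mAb it was -0.71 (adjusted p = 0.0765), and DESeq2 (0.0151) and the fit with no filter (0.0385) called it.

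Whole tumor gave no such change in Ccr2. Vehicle tumors held 209.6, 149.2, 112.4 and 116.8 CPM and ATOR-4066 tumors 120.0, 141.5, 239.7 and 81.1 CPM. The groups overlapped, and the log2 change was 0.00 (95% confidence interval -0.82 to 0.82).

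Blood Ccr2 stood at 29.2, 22.6, 14.8, 23.6 and 13.3 CPM in vehicle and at 10.1, 9.14, 9.51, 2.82 and 8.17 CPM under CD40 mAb, without overlap. The change was -1.28 ± 0.278 log2 units (adjusted p = 0.00258) and was kept in every alternative fit. ATOR-4066 blood, at 18.4, 13.9, 12.9 and 12.3 CPM, lay between the other groups and differed from neither by this test (adjusted p = 0.456 and 0.0846). In lymph node all 4 CD40 mAb libraries (30.4 to 38.5 CPM) were below all vehicle libraries (42.99 to 72.3 CPM). The change of -0.62 ± 0.165 did not pass edgeR's test (adjusted p = 0.0766), while DESeq2 called it (0.0133). ATOR-4066 lymph nodes ranged from 50.6 to 72.2 CPM.

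Blood directions depend on what they are set against. TMM compares each gene with the bulk of genes. The haemoglobin share was higher in the treated groups, with a median of 74.1% of counts in vehicle, 79.3% under CD40 mAb and 83.7% under ATOR-4066. With TMM and without haemoglobin genes, 60.5% of 4356 called genes were higher under CD40 mAb and 93.9% of 49 under ATOR-4066. The part of haemoglobin in the differences between scales was not tested. On library totals without TMM the median gene was 1.83 log2 units lower under CD40 mAb and 1.08 lower under ATOR-4066 than in vehicle. On that scale 2.9% of 10972 called genes were higher under CD40 mAb, against 64.2% of 4219 with TMM, and 0.12% of 9172 under ATOR-4066, against 94.3% of 53; for ATOR-4066 against CD40 mAb the shares were 85.9% of 2707 and 17.6% of 1593. Cx3cr1 was then -2.76 ± 0.366 and Ccr2 -2.98 ± 0.417 under CD40 mAb, so both lay below the median gene on either scale. Under ATOR-4066 all 4 tested members were called lower on totals (Cx3cr1 -1.55, Ccr2 -1.58, Nr4a1 -1.63, Ly6c2 -0.92), close to the shift of the median gene.

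Cx3cl1, the ligand of CX3CR1 (ENSMUSG00000031778, GRCm38 chr8:94772009-94782427, plus strand), passed no drug test. In tumor it stood at 4.16, 5.51, 4.79 and 4.55 CPM in vehicle and at 2.32, 6.27, 9.44 and 5.79 CPM under ATOR-4066. The CD40 mAb tumors held 3.22, 3.50, 8.49, 2.81 and 21.3 CPM, the highest value being that of animal 5, whose marker levels also stood apart. In lymph node all 4 CD40 mAb libraries (7.88 to 15.2 CPM) were below all vehicle libraries (16.8 to 20.5 CPM), and the change did not pass (-0.67, adjusted p = 0.183).

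Ccl2 (ENSMUSG00000035385, GRCm38 chr11:82035571-82037453), Ccl7 (ENSMUSG00000035373, chr11:82045712-82047525), Ccl12 (ENSMUSG00000035352, chr11:82101845-82103400) and Ccl8 (ENSMUSG00000009185, chr11:82115185-82116799) lie in this order on the plus strand in a single cluster. The first 3 encode ligands of CCR2, and mouse CCL8 acts on CCR8. The bases before the start of Ccl12 and Ccl8 are shown because the values of these neighbours were ordered differently under treatment. Both are the 250 bases before the RefSeq gene start on GRCm38, 5′ to 3′ on the plus strand, of chr11:82101595-82101844 and chr11:82114935-82115184. Capitals mark TATAAA and, on either strand, GGAAGT, the core of sites of the myeloid factor PU.1.
Ccl12: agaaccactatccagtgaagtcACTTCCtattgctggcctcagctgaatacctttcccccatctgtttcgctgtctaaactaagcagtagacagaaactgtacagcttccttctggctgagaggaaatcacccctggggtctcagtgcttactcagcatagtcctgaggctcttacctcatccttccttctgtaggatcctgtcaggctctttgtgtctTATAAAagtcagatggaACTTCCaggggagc
Ccl8: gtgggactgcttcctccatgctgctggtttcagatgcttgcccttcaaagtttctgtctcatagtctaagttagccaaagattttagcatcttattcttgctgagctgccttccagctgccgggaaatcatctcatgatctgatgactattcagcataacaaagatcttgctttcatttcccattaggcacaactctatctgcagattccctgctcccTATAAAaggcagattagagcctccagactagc

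TATAAA lies 31 to 26 bases before the start of Ccl12 and 32 to 27 before that of Ccl8, and 12.4% of the 32851 RefSeq windows of this length hold it on either strand. GGAAGT is on the minus strand 228 to 223 and 14 to 9 bases before Ccl12, is held by 19.7% of windows, and was not found before Ccl8. The AP-1 letters TGANTCA (6.75% of windows) and the STAT letters TTCCNNGAA (4.06%) were found in neither window. These are matches of letters only.

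Ccl12 fell in the sorted cells of ATOR-4066 mice. It stood at 68.1, 32.4, 146.0 and 92.3 CPM in vehicle, 31.8, 92.6 and 62.9 CPM under CD40 mAb and 6.03, 0.706 and 20.3 CPM under ATOR-4066. The 3 ATOR-4066 libraries lay below all others, animal 9 being lowest, and the change from vehicle was -3.23 ± 0.923 log2 units (adjusted p = 0.0490). The call was lost with no filter on low counts (0.185), with only the 2 groups in the fit (0.0751) and in 8 of the 10 fits without a library, all but those without vehicle animal 7 or ATOR-4066 animal 10 (0.0617 to 0.155). In lymph node all 5 ATOR-4066 libraries (13.3 to 24.9 CPM) were above vehicle (9.01 to 12.7 CPM), and the change of 0.63 ± 0.194 did not pass (adjusted p = 0.222).

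In the sorted cells Ccl7 and Ccl2 were also lowest under ATOR-4066. Ccl7 stood at 62.5, 34.96, 158.8 and 69.4 CPM in vehicle, 102.6, 118.5 and 169.6 CPM under CD40 mAb and 14.0, 1.599 and 24.9 CPM under ATOR-4066. Ccl2 stood at 184.6, 103.0, 234.2 and 181.8 CPM, 165.8, 169.0 and 336.9 CPM, and 29.3, 8.91 and 97.3 CPM. For both genes every ATOR-4066 library was below every other one, and animal 10 was the highest of them. Against vehicle neither passed edgeR's test (Ccl7 -2.59 ± 0.779, adjusted p = 0.0568, and Ccl2 -1.96 ± 0.671, adjusted p = 0.0856). DESeq2 (0.0109 and 0.00687) and voom (0.008 and 0.00187) called both. By edgeR both passed without ATOR-4066 animal 10 (0.0299 and 0.00875). Ccl2 did not pass edgeR's test against CD40 mAb (-2.31 ± 0.705, adjusted p = 0.0707), while DESeq2 (0.0031) and voom (0.00782) called it. Against CD40 mAb, Ccl7 fell by 3.27 ± 0.826 (adjusted p = 0.0423), a call lost with no filter (0.146), with only the 2 groups (0.118) and in 6 of the 10 fits without a library (0.0619 to 0.139), those without vehicle animal 6 or 10, any CD40 mAb animal or ATOR-4066 animal 6.

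**Figure D4:**
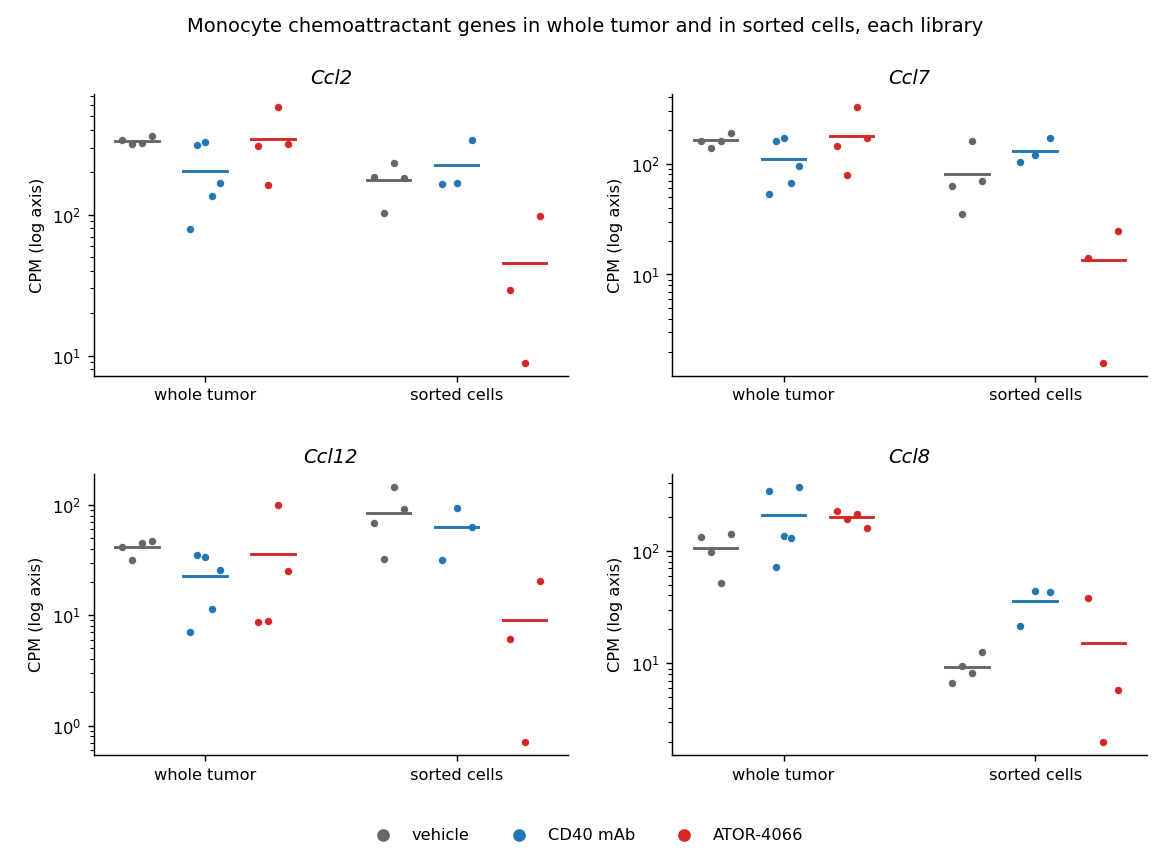
Ccl2, Ccl7, Ccl12 and Ccl8 in each whole tumor and CD45+Ly6G- library, in CPM with TMM within the material (logarithmic vertical axes), by treatment; points are libraries and bars are group means. In the sorted cells Ccl2, Ccl7 and Ccl12 are lowest in the 3 ATOR-4066 libraries, while in whole tumor the ATOR-4066 values of Ccl2 and Ccl7 surround the vehicle values.

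Whole tumor did not share this pattern for Ccl2 and Ccl7. Ccl2 was tight in vehicle tumors, from 317.7 to 359.9 CPM, and ranged from 162.7 to 580.4 CPM under ATOR-4066 and from 79.0 to 330.3 CPM under CD40 mAb. Ccl7 ranged from 139.0 to 189.6, from 78.9 to 322.9 and from 53.1 to 172.0 CPM. ATOR-4066 animal 4 was the highest of all tumors for Ccl2, Ccl7 and Ccl12 (100.2 CPM, against 31.7 to 47.3 in vehicle). For Ccl12 the other 3 ATOR-4066 tumors lay below every vehicle tumor, down to 8.64 CPM. The log2 change of Ccl12 over all 4 was -0.17 ± 0.712 (adjusted p = 0.908). The difference of the ATOR-4066 effects, sorted cells minus tumor, was called for 1 of the 9 genes, where 10.1% of all genes were: Ccl7, with -3.05 ± 0.980 log2 units (adjusted p = 0.0414). That call was lost with the left-out libraries in the fit (adjusted p = 0.281) and in 12 of the 50 fits without a library, and the value was -1.87 (adjusted p = 0.247) without the sorted ATOR-4066 animal 9.

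In the other tests of a difference between materials no member was called. These were the ATOR-4066 effect in lymph node minus blood, where 0.883% of genes were called, and the CD40 mAb effect in sorted cells minus tumor (0.402%), tumor minus lymph node (5.5%) and lymph node minus blood (22.9%). By the edgeR fit without the block, members called were 0 in each, and members with an unadjusted voom p under 0.05 were 1, 0, 4 and 1. Of all 21410 genes, 3746, 2546, 4409 and 8195 had such a p in the same order.

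In its drug changes Ccl8 did not follow its neighbours. In sorted cells it was 6.69, 9.45, 8.18 and 12.7 CPM in vehicle, 21.3, 43.6 and 42.6 CPM under CD40 mAb and 37.7, 2.00 and 5.86 CPM under ATOR-4066. The CD40 mAb libraries all lay above vehicle (1.95 ± 0.754, adjusted p = 0.196), and those of ATOR-4066 lay on both sides. The edgeR fit of the 2 groups alone called the CD40 mAb change (0.0138). In tumor the ATOR-4066 libraries (159.6 to 226.7 CPM) were all above the vehicle ones (51.5 to 140.7 CPM). The change did not pass the test (0.92 ± 0.465, adjusted p = 0.241), while the fit of the 2 groups alone called it (0.0418). In lymph node all 4 CD40 mAb libraries (22.8 to 48.01 CPM) were below vehicle (59.0 to 83.1 CPM). The change of -0.85 ± 0.262 did not pass edgeR's test (adjusted p = 0.104), while DESeq2 (0.0155) and voom (0.0471) called it.

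Ly6c2, which encodes the surface antigen of classical monocytes and is also made by some T cells (ENSMUSG00000022584, GRCm38 chr15:75108158-75111970, minus strand), rose in blood under CD40 mAb on the TMM scale. It stood at 16.2, 22.2, 15.2, 18.2 and 11.7 CPM in vehicle and at 9.01, 45.7, 23.7, 40.3 and 39.7 CPM under CD40 mAb. Animals 2 to 5 lay above all vehicle libraries and animal 1 below them. The change was 1.02 ± 0.326 log2 units (adjusted p = 0.0245), but it flipped to -0.98 ± 0.281 (adjusted p = 0.00153) on library totals, where the median gene was at -1.83. The call was lost with no filter (0.1), with only the 2 groups in the fit (0.0523) and without vehicle animal 3 or 5 or CD40 mAb animal 2, 4 or 5 (0.0506 to 0.0706).

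Lymph node Ly6c2 was higher in the treated libraries. Vehicle held 134.9, 172.3, 121.5 and 140.8 CPM, CD40 mAb 445.7, 406.2, 493.3 and 243.4 CPM and ATOR-4066 231.9, 444.2, 194.1, 216.8 and 250.2 CPM. Every treated lymph node was above every vehicle one. Neither change passed the test (CD40 mAb 1.47 ± 0.275, adjusted p = 0.0512, and ATOR-4066 0.90 ± 0.261, adjusted p = 0.222). For CD40 mAb DESeq2 (1.65e-05), voom (0.00984), no filter (0.0497) and the fit of the 2 groups alone (0.0272) did call it. For ATOR-4066 DESeq2 did (0.0207).

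In the tumor, Ly6c2 spread widely under both drugs. It stood at 156.8, 111.1, 101.9 and 115.1 CPM in vehicle, at 130.8, 64.0, 848.0 and 171.9 CPM under ATOR-4066 and at 35.1, 149.9, 129.9, 40.1 and 361.1 CPM under CD40 mAb. ATOR-4066 animal 4 and CD40 mAb animal 5 were the high ones. Sorted cells held 1599 to 2253 CPM in vehicle, 746.7 to 1511 under CD40 mAb and 624.6 to 1756 under ATOR-4066, with no call by edgeR (adjusted p = 0.366 and 0.186). Voom called the ATOR-4066 change there (-1.095, adjusted p = 0.0106).

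**Figure D5:**
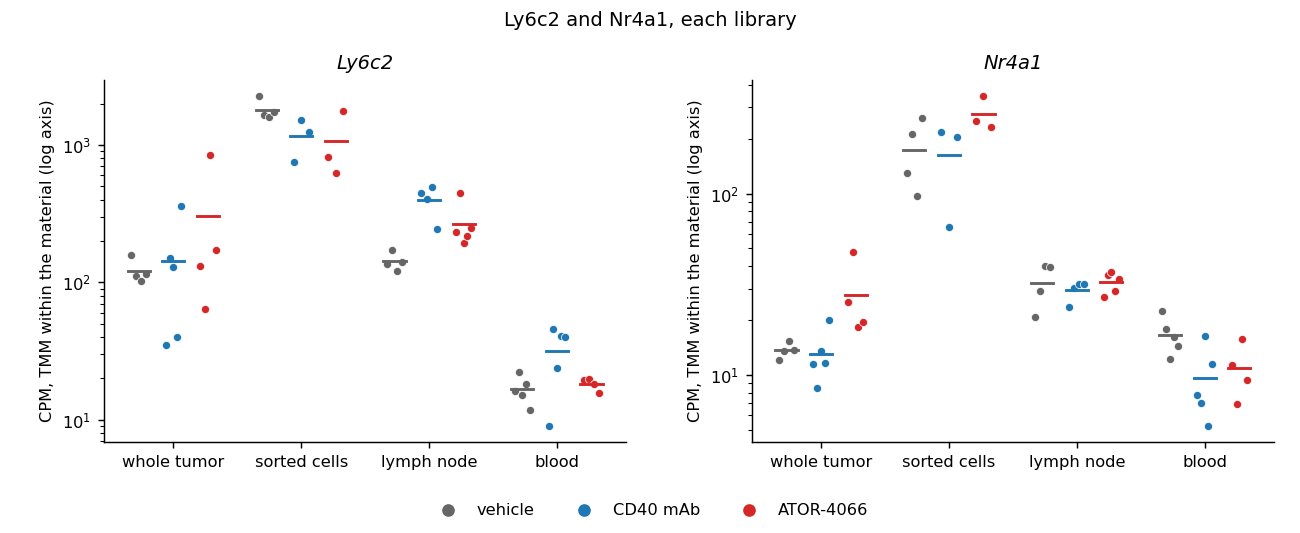
Ly6c2 (left) and Nr4a1 (right) in each library, in CPM with TMM within the material (logarithmic vertical axis), by material and treatment; points are libraries and bars are group means. Every treated lymph node lies above the vehicle lymph nodes for Ly6c2, and every ATOR-4066 tumor lies above the vehicle tumors for Nr4a1.

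Nr4a1, the nuclear receptor of Ly6C-low monocytes (ENSMUSG00000023034, GRCm38 chr15:101254269-101274795, plus strand), stood at 12.1, 13.5, 15.4 and 13.8 CPM in vehicle tumors and at 25.2, 47.4, 18.3 and 19.6 CPM in ATOR-4066 tumors. The groups did not overlap, and the change of 1.01 ± 0.307 log2 units did not pass edgeR's test (adjusted p = 0.0830), while DESeq2 (0.0205), voom (0.00863) and the fit of the 2 groups alone (0.0297) called it. In the sorted cells vehicle ranged from 97.7 to 260.2 CPM and ATOR-4066 from 232.6 to 343.9 CPM, with overlap. Cx3cr1 and Nr4a1, both tied to Ly6C-low monocytes, thus had opposite signs in both materials, -4.15 and 1.01 in tumor and -2.94 and 0.67 in sorted cells. Blood Nr4a1 stood at 12.3 to 22.6 CPM in vehicle, 5.25 to 16.5 under CD40 mAb and 6.96 to 15.8 under ATOR-4066, without a call (adjusted p = 0.0655 and 0.393).

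The monocyte marker lists did not move as a block with the receptors. Of 9 classical monocyte markers, 0 were called in sorted cells or tumor under ATOR-4066, with medians of -0.77 and 1.03 log2 units. By edgeR 3 had an unadjusted p under 0.05 in sorted cells, next to 4840 of all 16667 genes, and 4 in tumor, next to 4552 of 18454. DESeq2 called 3 of the markers in each, and voom called 4 in each. Their summed level was 3289 to 4265 CPM in vehicle sorted cells and 851 to 3291 CPM under ATOR-4066. Of 8 patrolling monocyte markers 1 was called in sorted cells, Spn (1.56 log2 units higher), which T cells also express, and the median was -0.07. By edgeR 6 of the 8 had an unadjusted p under 0.05, next to 4840 of all 16667 genes. DESeq2 called 4 of the markers and voom 2. Their summed level was 1095 to 1589 CPM in vehicle sorted cells and 1658 to 2789 CPM under ATOR-4066, without overlap and in the direction opposite to Cx3cr1. A sum follows its most abundant genes, and with a median of -0.07 it does not stand for all 8. It includes Spn and the integrin chain Itgal, and the part of T cells in it was not tested. In blood under CD40 mAb, 2 classical markers rose, Cd14 and Hp, and 1 fell, Fn1 (-2.09). There, 1 patrolling marker fell, Ear2 (-0.96), and 1 rose, Pglyrp1 (0.77). On library totals the 3 that rose, Cd14, Hp and Pglyrp1, flipped to lower.

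Markers of other cells moved beside the receptors. In the sorted cells under ATOR-4066, 6 of 6 T cell markers rose, from a summed 434 to 679 CPM in vehicle to 1294 to 3076 CPM, and 4 of 10 macrophage markers fell, among them C1qa (-2.18) and C1qb (-2.03), from 5705 to 7985 CPM to 465 to 2504 CPM. Of 6 dendritic cell markers 3 fell, among them Xcr1 (-2.88) and Clec9a (-2.52), and 2 of 6 B cell markers rose, with a summed 366.9 CPM in ATOR-4066 animal 9 against at most 19.1 in the other 2. The tumor epithelium markers Krt19 (4.99) and Krt8 (4.58) rose, 2 of 5, and both were at 0 in the CD40 mAb sorted cells. The sum of the 5 did not rise, at 30.1 to 55.8 CPM in vehicle and 27.7 to 33.6 CPM under ATOR-4066. The fibroblast marker Dcn fell (-2.38), 1 of 5. Erythroid markers summed to 5832.5 CPM in ATOR-4066 animal 6, against 116 and 33.1 CPM in the other 2 and at most 359.8 in vehicle. Of 5 tested, 0 were called by edgeR, DESeq2 or voom, and 4 had an unadjusted edgeR p under 0.05, next to 4840 of all 16667 genes. Of 7 neutrophil markers tested, 1 rose, S100a8 (5.20), and Camp was at 0 in vehicle and ATOR-4066. The neutrophil list summed to 174 to 275 CPM in vehicle sorted cells and 60.6 to 222 CPM under ATOR-4066 (medians 202 and 135). In tumor under ATOR-4066, 0 of 10 macrophage markers were called by edgeR and 1 had an unadjusted p under 0.05, next to 4552 of all 18454 genes. DESeq2 called 1 of the 10 and voom 2 (summed 4641 to 6795 CPM in vehicle, 3308 to 5804 under ATOR-4066). There, 1 of 6 dendritic cell markers fell, Xcr1 (-2.89), and 3 of 8 tested neutrophil markers rose, S100a9 (5.43), S100a8 (4.86) and Cxcr2 (3.73). The summed neutrophil list did not rise with these 3. It was 302 to 405 CPM in vehicle tumors and 133 to 532 CPM under ATOR-4066 (medians 388 and 194). In blood under CD40 mAb on the TMM scale 10 of 10 neutrophil markers rose (summed 114 to 240 CPM in vehicle, 219 to 1038 CPM), as did 6 of 6 erythroid markers, and 5 of 6 B cell markers fell. On library totals 5 of the 10 neutrophil markers flipped to lower, with 2 called higher and 1 lower, as did 2 of the 6 erythroid markers, with 3 called higher, and all 6 B cell markers were called lower. The part of these shifts in the changes of the 9 genes was not tested.

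A list of 42 other genes of monocyte traffic was counted beside the members. In tumor 2 of the 42 rose under ATOR-4066 and 0 fell, next to 1.32% of all genes: Ccl9, a myeloid CC chemokine (2.40, adjusted p = 0.0433), and Cebpb, a transcription factor of Ly6C-low monocytes and granulocyte emergency production (1.64, adjusted p = 0.0399). The median of the 42 was 1.06, against 0.02 over all genes. In sorted cells 5 of 40 tested rose and 0 fell, a share near the 11.9% of all genes called: Ccl5, a chemokine of T cells and macrophages (1.73), Cxcr4, which holds cells in the marrow (1.51), Ccr3 (1.73), the integrin chain Itgb1 (0.90) and Klf2, a factor of quiescent lymphocytes and monocytes (1.43). Under CD40 mAb 3 of 40 rose there and 0 fell, Ccl6 (2.74), Ccl9 (2.07) and Klf2 (2.14), next to 1.09% of all genes. Against CD40 mAb, 2 of 40 were lower in the ATOR-4066 cells, Ccl6 (-2.63) and Ccl9 (-2.28), and 4 were higher, Ccl5 (1.54), the integrin chain Itgal (1.04), Cxcr4 (0.93) and Nr4a3, a relative of Nr4a1 (1.55), next to 8.23% of all genes. In lymph node 0 of 42 were called by edgeR for either drug. An unadjusted p under 0.05 was reached by 10 for ATOR-4066 and 9 for CD40 mAb, next to 2954 and 4409 of all 18671 genes. DESeq2 called 1 and 4 of the 42.

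In blood under CD40 mAb 11 of the 33 tested rose and 5 fell on the TMM scale, next to 34.6% of all genes. On library totals 10 of the 11 flipped to lower, Ackr1 being the exception, and 28 of 33 were called lower and 0 higher. Ackr1, a decoy receptor that binds CCL2 on red cells, rose by 2.53, Ccrl2 by 1.95, Ccr1 by 1.51 and Selp, the platelet selectin, by 1.46. Klf4, a transcription factor of monocytes, fell by 1.31 and Ccl9 by 0.83. Under ATOR-4066, 0 of 33 were called by edgeR and 4 had an unadjusted p under 0.05, next to 1831 of all 12184 genes. DESeq2 called 1 of the 33 and voom 3.

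Among 13400 genes, those most like each member over the 23 tumor and sorted libraries, centred on their material, are given as a description, since libraries share treatment and cell make-up. Cx3cr1 was most like Trim65 (r = 0.907), Nckap5l (0.906), Ppfia4 (0.875), Siglece (0.871) and Hic1 (0.869), and Ccr2 most like Prr5l (0.881), Themis2 (0.868), Cyth4 (0.866), Klhl18 (0.865) and Aoah (0.864). Neither receptor was among the nearest genes of the other, and their own r was 0.433, made of 0.241 in tumor and 0.870 in sorted cells. Ccl2 was most like Ccl7 (0.965), Ifitm3 (0.938) and Oas1g (0.928), and Ccl7 most like Ccl2, Grn (0.940) and Loxl3 (0.937). Ccl12 was most like Ch25h (0.978), Slamf9 (0.966) and Oas1g (0.965), and its r with Ccl2 was 0.922. Ccl8, the neighbour of Ccl12, was most like Pltp (0.888), Creb3l3 (0.857) and Slc9a4 (0.852). Its r with Ccl12 was 0.212, made of -0.414 in tumor and 0.447 in sorted cells. With Ccl7 its r was -0.348 in tumor and 0.610 in sorted cells, and with Ccl2 -0.439 and 0.477. Cx3cl1 was most like the endothelial genes Pecam1 (0.839) and Erg (0.835) and like Rgs8 (0.829). Ly6c2 was most like H2-T22 (0.927), Ifi209 (0.919) and Phf11b (0.913), and Nr4a1 like Prg4 (0.834), Orai2 (0.797) and Il1a (0.781).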

How the data were processed

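RNA-seq values were read as the authors' deposited estimated counts per gene, which the name of the file ties to salmon, and the submitters' processing notes name STAR and the build GRCm38. For the gene models and other settings nothing is stated in the sources used here. In that file 11% of values were not whole and were rounded, and 0 columns of per-sample values were unused. Gene positions and exon lengths came from GENCODE M21 (GRCm38), which holds 52029 of the 57010 identifiers. Sequences came from RefSeq on GRCm38, where 7 of the 9 members have a promoter entry.

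For drug effects, edgeR 4.0.16 (R 4.3.3) took all libraries of a material in 1 fit (filterByExpr with a count minimum of 10 and a total of 15, TMM, robust quasi-likelihood test). Vehicle levels and drug effects across materials were fitted with voomLmFit (edgeR, limma 3.58.1) with sample weights by material and the animal as a random block, since blood, lymph node and tumor libraries of the same treatment and number come from 1 animal by their titles; the estimated correlation within an animal was -0.0153. Calls are Benjamini-Hochberg adjusted p-values under 0.05 over all genes tested. Alternatives were DESeq2 1.42.0, RLE factors, no filter, a replicate block, voom, only the groups compared, no haemoglobin genes, the left-out libraries, each library left out, and, added after seeing the data, library totals without scaling factors. The models were tested on simulated data. Tables were joined in python 3.11.15.

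The 9 members are named throughout. Of the other lists all genes were counted, and up to 3 called genes per list and comparison named, smallest p first. Likeness was the Pearson correlation of log2 CPM with a prior count of 2, for the nearest 5 genes of each receptor and 3 of each other member, without predicted genes and pseudogenes. The members and lists were chosen with earlier results of these data known. Library totals of at least 30239560 counts limit precision mainly for genes near 0 and, in blood, where haemoglobin takes most counts.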

Additional observations from a re-analysis of the deposited data

Results flagged for a closer look

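In 3 of the 75 groups with enough libraries for the check, a library lay far from its group, and chance alone flags about 1 in 20 groups. Cx3cr1 was 292.2 CPM in the sorted vehicle cells of animal 7, below the other 3. Ccl2 was 31.62 CPM in the vehicle lymph node of animal 1, above the other 3. Ccr2 was 2.819 CPM in the CD40 mAb blood of animal 4, below the other 4.

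The effect of ATOR-4066 differed between materials, by a test of the difference itself, for Ccl7 in sorted cells minus tumor (-3.054 log2 units) and for Cx3cr1 in tumor minus lymph node (-4.068 log2 units).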

How the results depend on the processing

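Main counts of members called, over the 12 drug comparisons and the 9 tests across materials, changed as follows. For ATOR-4066 against vehicle in tumor the count of 1 became 2 by DESeq2, 2 by voom, 3 with only the groups compared, and 0 with no filter, with the replicate block or with the left-out libraries. In sorted cells its 3 became 5 by DESeq2 and 6 by voom, in lymph node its 0 became 1 by DESeq2, and in blood its 0 became 4 on library totals. For CD40 mAb against vehicle 0 became 1 in sorted cells with only the groups compared, and in lymph node 3 by DESeq2, 2 by voom, 1 with no filter and 1 with only the groups compared. For ATOR-4066 against CD40 mAb 0 became 2 in tumor by DESeq2 and 2 by voom, 1 in lymph node by DESeq2, and in blood 1 by DESeq2, 1 by voom and 2 on library totals; in sorted cells 2 became 5 by DESeq2, 4 by voom, 1 with no filter, 0 with only the groups compared and 0 with the replicate block. For the ATOR-4066 effect, 1 became 0 in sorted cells minus tumor with the left-out libraries and 2 by edgeR, and 0 in tumor minus lymph node with the left-out libraries; for the CD40 mAb effect in tumor minus lymph node 0 became 1 with no replicate block. On library totals Ly6c2 reversed in blood, to -0.92 under ATOR-4066 and -0.98 under CD40 mAb. The causes were not tested.

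Without each library in turn the counts ranged from 0 to 2 (ATOR-4066 against vehicle, tumor), 2 to 6 (sorted cells), 0 to 1 (CD40 mAb, lymph node), 2 to 4 (CD40 mAb, blood), 0 to 1 (ATOR-4066 against CD40 mAb, tumor), 0 to 5 (sorted cells) and 0 to 1 (blood), and across materials from 4 to 6 (levels, sorted cells against tumor), 0 to 3 (ATOR-4066 effect, sorted cells minus tumor), 1 to 2 (tumor minus lymph node) and 0 to 1 (CD40 mAb effect, tumor minus lymph node). Across materials these fits were run without the animal block, chosen after seeing the data, and those with it were not run.

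All genes called moved likewise between alternatives (replicate block and left-out libraries included): ATOR-4066 against vehicle, 243 with a range of 0 to 4913 in tumor, 1977 (1090 to 4496) in sorted cells, 0 (0 to 503) in lymph node and 53 (6 to 9172) in blood; CD40 mAb against vehicle, 0 (0 to 30), 182 (14 to 1527), 12 (0 to 1833) and 4219 (3723 to 10972); ATOR-4066 against CD40 mAb, 6 (0 to 837), 1372 (3 to 3013), 3 (0 to 152) and 1593 (2 to 2707); ATOR-4066 effects, 2158 (1757 to 3521), 1814 (21 to 1882) and 189 (39 to 220); CD40 mAb effects, 86 (19 to 744), 1178 (0 to 1223) and 4898 (2967 to 5003).

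Equal numbers under different treatments name different animals. In 44 such pairs the correlation of deviations was -0.386 to 0.360, over 0.1 in 9, so the numbers do not pair. With the replicate block, adjusted p was 0.125 for Cx3cr1 in tumor and 0.0934 for Ccl12 in sorted cells (ATOR-4066 against vehicle), and 0.0964 for Cx3cr1 and 0.101 for Ccl7 between the drugs in sorted cells. Few libraries per group limit every call, and haemoglobin limits the depth in blood.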

Other observations

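The 2 left-out libraries carried levels of the chemokine genes unlike their labelled groups. The library labelled as vehicle lymph node of animal 3 had 561.8 CPM of Ccl2, 268.8 CPM of Ccl7 and 107.4 CPM of Cx3cr1, against at most 31.6, 17.5 and 29.4 CPM in the other vehicle lymph nodes. The library labelled as ATOR-4066 tumor of animal 3 had 47.4 CPM of Ccl2 and 32.2 CPM of Ccl7, against at least 162.7 and 78.9 CPM in the other ATOR-4066 tumors.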
